A study of Mus musculus with 8 samples.

Results

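The adipogenic transcription factors described here are 10 named genes: Pparg, Cebpa, Cebpb, Cebpd, Klf15, Zfp423, Ebf1, Ebf2, Nr3c1 and Ppargc1a. They were chosen by name for their known roles in fat cell formation, and all 10 were found among the 56749 features of the count tables. Their RNA was followed in adipocyte-like and progenitor-like nuclei from the visceral white fat of 8 mice, which form 4 groups of 2. By the labels' genotypes, every mouse carried 1 modified and 1 wild-type allele of p21, the cell cycle inhibitor encoded by Cdkn1a. For the control on the high-fat diet the labels give p21+/mCherry whereas the series' design text gives p21+/-, and the labels were followed. The genotype p21+/mCherry places the red fluorescent protein mCherry at that locus, and these mice ate a standard diet (mCherry SD, mice rep144 and rep146) or a high-fat diet (mCherry HFD, rep128 and rep129). The genotype p21+/mCherry-Tert adds Tert, the catalytic subunit of telomerase (Tert HFD, rep134 and rep136), and p21+/mCherry-TertCi adds an allele labelled TertCi, whose difference from Tert the labels do not spell out (TertCi HFD, rep138 and rep140). Both of these groups ate the high-fat diet. The series' design text attributes expression of the added genes to the p21 promoter, so they depend on cells in which that promoter is active. Age, sex and the length of the diet are not given in the sources used here.

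Fat cell formation starts from fibroblast-like progenitors, in which C/EBPβ and C/EBPδ act early and switch on PPARγ and C/EBPα, the pair that maintains the mature adipocyte. ZFP423, EBF1 and EBF2 mark or prepare committed progenitors, and EBF2 is best known as a selectivity factor of brown and beige fat that works beside PPARγ. The glucocorticoid receptor (Nr3c1), KLF15 and the coactivator PGC-1α (Ppargc1a) link the programme to hormones, nutrients and mitochondrial genes.

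Unique molecular identifiers (UMIs) count RNA molecules, and UMIs of all nuclei of a class were summed in each mouse. Levels are given in CPM, the usual share of a library's counts, and TMM CPM are the same after scaling by the trimmed mean of M-values (TMM), with n = 2 mice in each group. Of 30209 nuclei retained, 10968 fell into these classes. The adipocyte-like class held 790 and 1030 nuclei for mCherry SD, 193 and 62 for mCherry HFD, 509 and 904 for Tert HFD, and 1826 and 539 for TertCi HFD. The progenitor-like class held 210 and 255, 1203 and 459, 757 and 640, and 1210 and 381 nuclei in the same order. All 10 adipocyte markers used for naming, such as Adipoq and Plin1, were raised in each of its clusters (1, 8, 11 and 17), as were all 10 progenitor markers, such as Pdgfra and Dcn, in each progenitor-like cluster (2, 7 and 14). Library totals ran from 23378488 to 139749876 UMIs, and a nucleus had to reach 987 to 4705 UMIs depending on the library. Of 30088 distinct barcode sequences, 119 occurred in more than 1 library, with 0 to 14 shared by any pair of libraries. Of 29 clusters, 7 with markers of more than 1 lineage and 3 unnamed ones were left out. Checks of the modified locus were limited. In adipocyte-like nuclei Cdkn1a was 0.25 and 1.43 CPM in mCherry SD, 11.5 and 11.5 in mCherry HFD, 8.69 and 4.58 in Tert HFD, and 7.74 and 3.44 in TertCi HFD. Tert was 2.25 and 2.08 CPM in the libraries labelled Tert HFD, below the 2.73 and 3.26 CPM of those labelled mCherry SD and above the 0.31 and 0 of mCherry HFD, and it was 2.79 and 2.52 in TertCi HFD. Against mCherry HFD these differences were 3.13 for Tert (edgeR adjusted p = 0.0935) and 3.6 for TertCi (edgeR adjusted p = 0.0270) on the log2 scale, from 1 and 0 UMIs in mCherry HFD, so their size depends on the fit's prior count. In progenitor-like nuclei the order was different, with Tert at 3.69 and 2.47 CPM in Tert HFD and 2.33 and 3.99 in TertCi HFD against 10.4 and 8.93 in mCherry HFD. There the differences were -1.42 for Tert (edgeR adjusted p = 0.0577) and -1.58 for TertCi (edgeR adjusted p = 0.0271) on the log2 scale. The diet difference of Tert in progenitor-like nuclei, mCherry HFD against mCherry SD, was 0.82 (edgeR adjusted p = 0.345) and was not called. In adipocyte-like nuclei it was called, at -3.62 (edgeR adjusted p = 0.0205), from the same 1 and 0 UMIs in mCherry HFD. Only 25 UMIs of mCherry were counted over all barcodes of the 8 libraries. Directions therefore hold for the libraries as labelled.

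In adipocyte-like nuclei, the high-fat diet went with lower Ebf2, Nr3c1, Pparg and Ebf1 and higher Zfp423 among mice with mCherry. Ebf2 had the largest fold of the 10, with a mean of 533 ± 30.6 TMM CPM (SD, n = 2) in mCherry SD and 166 ± 57.9 in mCherry HFD. On the high-fat diet, mice with TertCi had higher Ebf2, Ebf1, Nr3c1 and Zfp423 than mice with mCherry, and mice with Tert had higher Ebf2. Cebpa, Cebpb, Cebpd, Klf15 and Ppargc1a passed the test in none of these comparisons. The 3 comparisons use the same mCherry HFD mice and are not independent of each other.

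**Figure D1:**
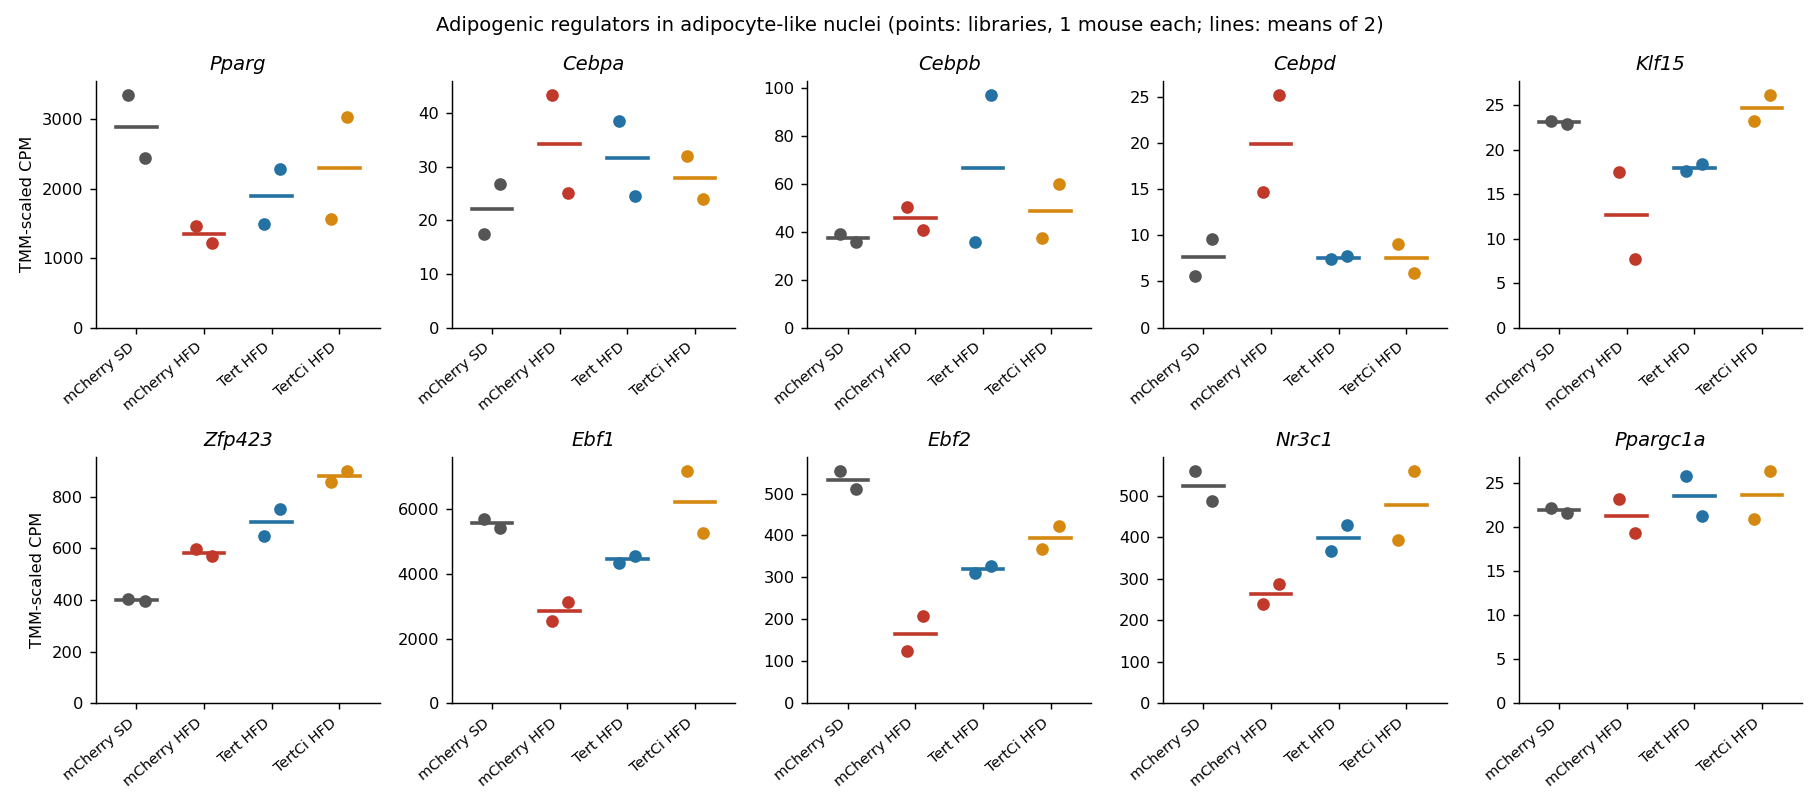
TMM CPM of each regulator in adipocyte-like nuclei (y axes start at 0 and differ between genes). Points are mice, and lines are group means of 2. Both mCherry HFD mice sit below the other 6 for Ebf1, Ebf2 and Nr3c1, and Zfp423 is lowest in mCherry SD at 404 and 395.

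Pparg (ENSMUSG00000000440) encodes PPARγ, the nuclear receptor required for adipocytes to form and persist. In adipocyte-like nuclei it stood at 3346 and 2437 TMM CPM in mCherry SD, 1461 and 1222 in mCherry HFD, 1495 and 2277 in Tert HFD, and 1563 and 3034 in TertCi HFD. In TMM CPM both mCherry HFD mice were below all others, while Tert mouse rep134 and TertCi mouse rep138 were only just above them. This order did not hold in CPM without TMM scaling. There the mCherry HFD mice were at 1732 and 1449, Tert mouse rep134 at 1627 and TertCi mouse rep138 at 1418. The diet difference was -1.11 on the log2 scale (SE 0.33, edgeR adjusted p = 0.0402). Against mCherry HFD, Tert HFD differed by 0.49 (edgeR adjusted p = 0.395) and TertCi HFD by 0.77 (edgeR adjusted p = 0.138). Over the 8 fits that left out 1 mouse, the Tert difference was 0.22 to 0.80. The TertCi difference was 0.27 to 1.22 over those fits, highest without TertCi mouse rep138. The spread within Tert HFD and TertCi HFD was wide, at 553 and 1040 TMM CPM (SD). The diet call was lost without mCherry SD mouse rep144 (log2 -0.93, edgeR adjusted p = 0.162), mCherry HFD mouse rep128 (log2 -1.33, edgeR adjusted p = 0.170) or mCherry HFD mouse rep129 (log2 -1.02, edgeR adjusted p = 0.162). It was also lost without TMM scaling (log2 -0.80, edgeR adjusted p = 0.0759) and with progenitor-like RNA subtracted (log2 -1.15, edgeR adjusted p = 0.0524).

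Of the 10 genes, 7 have promoter windows in RefSeq's table (build GRCm38.p6), with 11 windows among them. For genes called in the adipocyte-like class, 4 windows are shown that hold no annotated exon: the last of 3 Pparg starts, both Zfp423 starts and the second Ebf1 start. Each is the 250 bases before the start, 5′ to 3′ on the gene's strand. Capitals mark matches, on either strand, to TTGCNNAA (C/EBP), CCCNNGGG (EBF) or CCAAT (the CCAAT box).
Pparg, chr6:115421816-115422065, plus strand: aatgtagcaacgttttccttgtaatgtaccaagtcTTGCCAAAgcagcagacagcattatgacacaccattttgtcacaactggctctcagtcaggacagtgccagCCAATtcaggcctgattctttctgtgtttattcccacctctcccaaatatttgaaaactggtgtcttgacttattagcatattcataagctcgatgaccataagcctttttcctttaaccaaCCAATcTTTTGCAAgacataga
Zfp423, chr8:87959596-87959845, minus strand: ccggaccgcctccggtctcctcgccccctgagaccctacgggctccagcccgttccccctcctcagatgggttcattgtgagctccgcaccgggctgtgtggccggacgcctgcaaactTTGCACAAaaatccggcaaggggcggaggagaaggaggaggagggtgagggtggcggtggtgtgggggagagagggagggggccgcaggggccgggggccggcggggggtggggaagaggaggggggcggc
Zfp423, chr8:87804440-87804689, minus strand: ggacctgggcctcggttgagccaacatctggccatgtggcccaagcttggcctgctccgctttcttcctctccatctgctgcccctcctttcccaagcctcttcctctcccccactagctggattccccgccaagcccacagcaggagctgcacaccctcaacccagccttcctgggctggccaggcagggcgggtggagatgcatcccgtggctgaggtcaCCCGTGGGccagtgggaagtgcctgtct
Ebf1, chr11:44619978-44620227, plus strand: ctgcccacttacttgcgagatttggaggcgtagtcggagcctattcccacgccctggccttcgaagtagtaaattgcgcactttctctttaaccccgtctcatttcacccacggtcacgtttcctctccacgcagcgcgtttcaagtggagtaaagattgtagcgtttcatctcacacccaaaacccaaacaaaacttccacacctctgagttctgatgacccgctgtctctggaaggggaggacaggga
The Pparg window lies between annotated exons of the gene and holds 2 C/EBP matches and 2 CCAAT matches, and a lone base separates the CCAAT match nearest the start from the C/EBP match after it. The first Zfp423 window holds 1 C/EBP match, the second holds 1 EBF match, and the Ebf1 window has none of the motifs. Among 32817 windows of this length in the table, 9.57% hold TTGCNNAA, 11.8% hold CCCNNGGG and 33.8% hold CCAAT. The direct repeat bound by PPARγ with its partner RXR is in 0.0335% of windows, ACANNNTGT, for the glucocorticoid receptor, is in 5.84%, and neither is in any of the members' 11 windows. Of the windows not shown, the Cebpb window holds 1 EBF match, and the Klf15 window and the second Pparg window hold 1 CCAAT match each. These are matches of letters and no binding was measured, and the counts do not separate transcripts from different starts.

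Cebpa (ENSMUSG00000034957) encodes C/EBPα, which sustains Pparg expression and insulin responsiveness in mature adipocytes. It stood at 17.4 and 26.8 TMM CPM in mCherry SD, 43.4 and 25.2 in mCherry HFD, 38.6 and 24.7 in Tert HFD, and 32.0 and 24 in TertCi HFD. The ranges of all 4 groups overlapped. The diet difference of 0.73 (SE 0.34) did not pass (edgeR adjusted p = 0.160).

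Cebpb (ENSMUSG00000056501), an early and stress-responsive member of the C/EBP family, was between 35.8 and 97.2 TMM CPM in the 8 adipocyte-like sums. The highest value came from Tert mouse rep136 and the lowest from the other Tert mouse, rep134, so the Tert group spanned the range of all others. Without TMM scaling the lowest was TertCi mouse rep138, at 33.9 CPM against 38.9 in Tert mouse rep134. Cebpd (ENSMUSG00000071637), the other early member, stood at 5.62 and 9.57 TMM CPM in mCherry SD, 14.6 and 25.2 in mCherry HFD, 7.39 and 7.73 in Tert HFD, and 9.08 and 5.94 in TertCi HFD. Both mCherry HFD mice were above the other 6. Its diet difference of 1.20 (SE 0.42, edgeR adjusted p = 0.0672) and its TertCi difference of -1.21 (SE 0.41, edgeR adjusted p = 0.0757) missed the threshold. Without TMM scaling both passed, at 1.49 (edgeR adjusted p = 0.0463) and -1.65 (edgeR adjusted p = 0.0339).

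Klf15 (ENSMUSG00000030087), a Krüppel-like factor that acts downstream of glucocorticoids and promotes Pparg expression, was low throughout. It stood at 23.3 and 23.0 TMM CPM in mCherry SD, 17.5 and 7.75 in mCherry HFD, 17.6 and 18.4 in Tert HFD, and 23.2 and 26.2 in TertCi HFD. In TMM CPM both mCherry HFD mice were lowest, with rep128 only just below Tert mouse rep134. In CPM without that scaling rep128 was at 20.8, above both Tert mice (19.1 and 15.8). The diet difference of -0.64 (SE 0.31) did not pass (edgeR adjusted p = 0.171).

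Zfp423 (ENSMUSG00000045333) encodes a zinc finger protein that commits progenitors to the fat lineage and holds white adipocytes in their white state. Its levels were 404 and 395 TMM CPM in mCherry SD, 596 and 569 in mCherry HFD, 647 and 753 in Tert HFD, and 857 and 900 in TertCi HFD. In TMM CPM the group ranges did not overlap. In CPM without that scaling, mCherry HFD (707 and 675) and Tert HFD (704 and 648) overlapped. For this and later separations of groups, the share of all genes separated in the same way was not counted. The diet difference was 0.55 (SE 0.17, edgeR adjusted p = 0.0427). The TertCi difference was 0.59 (SE 0.16, edgeR adjusted p = 0.0406), while the Tert difference of 0.26 did not pass (edgeR adjusted p = 0.363). The diet call was lost in each of the 8 fits that left out 1 mouse, with differences of 0.43 to 0.54 and edgeR adjusted p of 0.0526 to 0.299. The TertCi call was kept in 4 of those 8 fits and lost without either mCherry HFD mouse or either TertCi mouse, and the difference was 0.15 (edgeR adjusted p = 0.583) when libraries were scaled by their totals alone.

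Ebf1 (ENSMUSG00000057098) encodes an early B cell factor that binds beside PPARγ at adipocyte enhancers and is needed for normal fat storage. It stood at 5703 and 5426 TMM CPM in mCherry SD, 2539 and 3143 in mCherry HFD, 4335 and 4561 in Tert HFD, and 7185 and 5259 in TertCi HFD. The mCherry HFD mice were apart from all others. Ebf1 fell with the diet by 0.97 on the log2 scale (SE 0.23, edgeR adjusted p = 0.0164) and was higher with TertCi by 1.13 (SE 0.23, edgeR adjusted p = 0.0137). The Tert difference of 0.65 (SE 0.22) did not pass (edgeR adjusted p = 0.127). The diet call was lost without mCherry SD mouse rep144 (edgeR adjusted p = 0.0629) or mCherry HFD mouse rep128 (edgeR adjusted p = 0.144). The TertCi call was lost without either mCherry HFD mouse or TertCi mouse rep138, with edgeR adjusted p of 0.0575 to 0.125. Without TMM scaling, the diet difference was -0.68 (edgeR adjusted p = 0.0863) and the TertCi difference 0.70 (edgeR adjusted p = 0.0798).

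Ebf2 (ENSMUSG00000022053) encodes the relative of EBF1 that marks beige and brown precursors. It stood at 554 and 511 TMM CPM in mCherry SD, 125 and 207 in mCherry HFD, 310 and 328 in Tert HFD, and 368 and 422 in TertCi HFD. In TMM CPM none of the 4 group ranges overlapped. In CPM without that scaling, Tert HFD (337 and 282) and TertCi HFD (334 and 358) overlapped. Ebf2 fell with the diet by 1.73 on the log2 scale (SE 0.23, edgeR adjusted p = 0.00214), and it did so in each of the 8 fits that left out 1 mouse, by 1.45 to 2.13. Against mCherry HFD it was higher by 0.99 with Tert (SE 0.23, edgeR adjusted p = 0.0490) and by 1.30 with TertCi (SE 0.23, edgeR adjusted p = 0.00971). The Tert call sat at the threshold and was kept in 4 of 12 other alternatives and in 4 of the 8 fits that left out 1 mouse. It was lost without mCherry SD mouse rep146, either mCherry HFD mouse (log2 0.70 and 1.38) or Tert mouse rep136, with edgeR adjusted p of 0.0521 to 0.274. The TertCi call was lost only without mCherry HFD mouse rep128 among those 8 fits (log2 1.01, edgeR adjusted p = 0.0915). In 1 alternative, clusters with markers of several lineages were added to the class they most resembled. Unnamed clusters with such a class were added too, among them cluster 10 with 1302 nuclei. Elsewhere this setting is named mixed clusters in their best class. The Ebf2 difference was then -0.73 for the diet (edgeR adjusted p = 0.129), 0.25 for Tert (edgeR adjusted p = 0.650) and 0.38 for TertCi (edgeR adjusted p = 0.413). The Ebf2 result therefore holds for the adipocyte-like class without those clusters.

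Nr3c1 (ENSMUSG00000024431) encodes the glucocorticoid receptor, whose ligands are a standard trigger of adipocyte differentiation. It stood at 560 and 489 TMM CPM in mCherry SD, 240 and 289 in mCherry HFD, 368 and 429 in Tert HFD, and 394 and 561 in TertCi HFD. Again the mCherry HFD mice were lowest, and the TertCi mice overlapped both Tert HFD and mCherry SD. Nr3c1 fell with the diet by 1.00 (SE 0.21, edgeR adjusted p = 0.0125) and was higher with TertCi by 0.87 (SE 0.21, edgeR adjusted p = 0.0269). The Tert difference was 0.61 (edgeR adjusted p = 0.131). The diet call was lost without mCherry SD mouse rep144 (edgeR adjusted p = 0.0576) or mCherry HFD mouse rep128 (edgeR adjusted p = 0.133). The TertCi call was lost without either mCherry HFD mouse or TertCi mouse rep140, and the difference was 0.42 (edgeR adjusted p = 0.179) without TMM scaling.

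Ppargc1a (ENSMUSG00000029167), the coactivator of mitochondrial biogenesis, was 19.4 to 26.4 TMM CPM in all 8 adipocyte-like sums. Its diet difference was 0.01 (SE 0.26), the smallest of the 10 in size.

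In the diet comparison, 5 of the 10 genes passed edgeR's quasi-likelihood test in adipocyte-like nuclei, 1 higher and 4 lower. Among all 14908 genes tested, 20.5% passed, 12.5% higher and 8.06% lower. The TertCi comparison called 4 of 10, all higher, against 14.4% of genes in either direction, 5.82% higher and 8.53% lower. The Tert comparison called 1 of 10, higher, against 3.21% in either direction, 0.993% higher and 2.22% lower. Tert and TertCi differed for 0 of the 10 genes and for 0% of genes, with 845 genes at an unadjusted p under 0.05 in edgeR. The largest Tert against TertCi differences of members were -0.48 (SE 0.22) for Ebf1 and -0.46 (SE 0.28) for Klf15. The median of the 10 members was -0.31 for the diet against 0.02 for all genes, 0.36 for Tert against 0.01, and 0.66 for TertCi against -0.01. Scaling by library totals alone moved the median of all genes by 0.29 for the diet, -0.27 for Tert and -0.44 for TertCi on the log2 scale, and by 0.21, -0.15 and -0.21 in progenitor-like nuclei. The share of called genes that were higher then went from 60.8% to 81.9% for the diet, from 30.9% to 11.5% for Tert and from 40.6% to 8.83% for TertCi, and in progenitor-like nuclei from 64.8% to 82.5%, 27.0% to 15.1% and 33.3% to 15.8%. Leaving out mCherry HFD mouse rep128, which supplied 193 adipocyte-like nuclei against 62 from the other mouse of its group, took the calls from 5 to 1 for diet and from 4 to 0 for TertCi. Leaving out mCherry SD mouse rep144 also took the diet calls to 1, which was Ebf2 in each case. Without mCherry HFD mouse rep129 there were 3 diet calls and 1 TertCi call, and without TertCi mouse rep140 there were 2 TertCi calls.

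**Figure D2:**
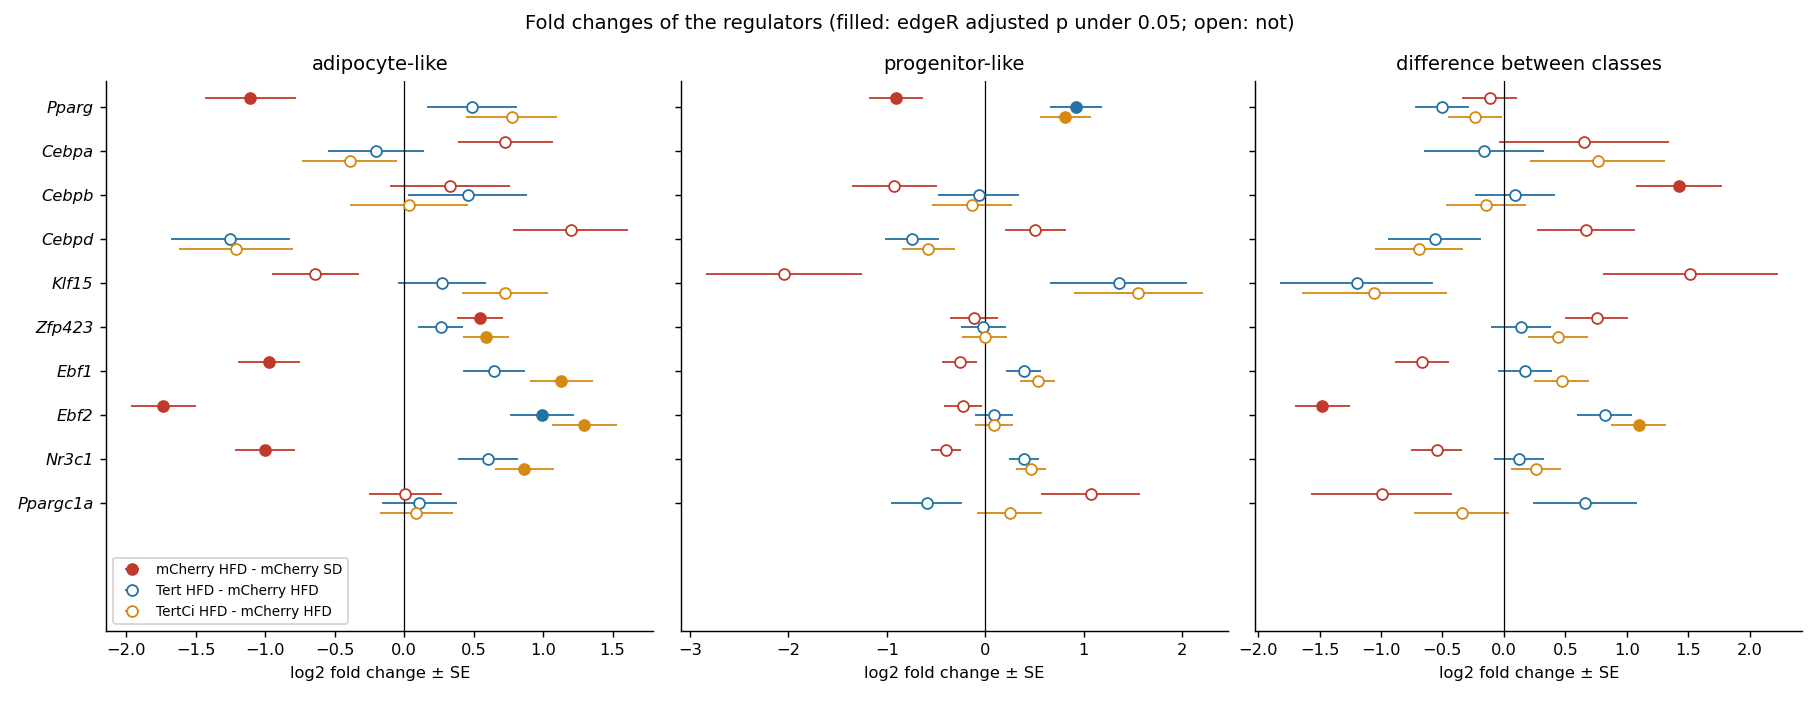
Log2 fold changes of the 10 regulators with standard errors, for the diet, Tert and TertCi comparisons, in each class and for the difference between classes. Filled points passed edgeR's quasi-likelihood test at an adjusted p under 0.05: Ebf2 is filled for the diet at -1.73 in adipocyte-like nuclei and at -1.48 in the difference between classes. Cebpa has no point in progenitor-like nuclei.

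The clusters that make up the adipocyte-like class differed between groups, and Ebf2, Pparg and Zfp423 differed between the clusters. Cluster 11 held 50.1% and 60.0% of adipocyte-like nuclei under mCherry SD but 2.59% and 4.84% under mCherry HFD, and 3.98 to 14.7% in the other 4 mice. In cluster 11, Ebf2 reached 659 and 665 CPM in mCherry SD, 1365 and 1235 in Tert HFD, and 1341 and 811 in TertCi HFD, more than in the other adipocyte-like clusters of the same mouse that held at least 20 nuclei. The mCherry HFD mice had under 20 nuclei in it. Summed over all mice, Pparg was 3080 CPM in cluster 11 and 1684 to 1793 in clusters 1, 8 and 17. Zfp423 was 831 CPM in cluster 1, 667 in cluster 17, 498 in cluster 8 and 445 in cluster 11. Cluster 1 held 8.86% and 7.48% of adipocyte-like nuclei in mCherry SD and 48.7% and 30.6% in mCherry HFD. It held 56.4% and 18.7% in Tert HFD and 78.2% and 53.4% in TertCi HFD. The part of cluster makeup in the Pparg and Zfp423 differences was not tested. Within cluster 8, Ebf2 was 412 and 383 CPM in mCherry SD, 130 and 160 in mCherry HFD, 249 and 206 in Tert HFD and 299 and 330 in TertCi HFD, with no overlap between groups. Refitting cluster 8 alone, an alternative chosen after seeing the data, kept all 3 Ebf2 calls and lost those of Pparg for the diet (log2 -0.84, edgeR adjusted p = 0.0643) and Zfp423 for TertCi (log2 0.36, edgeR adjusted p = 0.204). Cluster 17 supplied 61.6% of the adipocyte-like nuclei of Tert mouse rep136, was 89.7% from that library and had a median of 1736 UMIs. Without it, the Ebf2 difference with Tert was 0.96 (edgeR adjusted p = 0.0542).

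**Figure D3:**
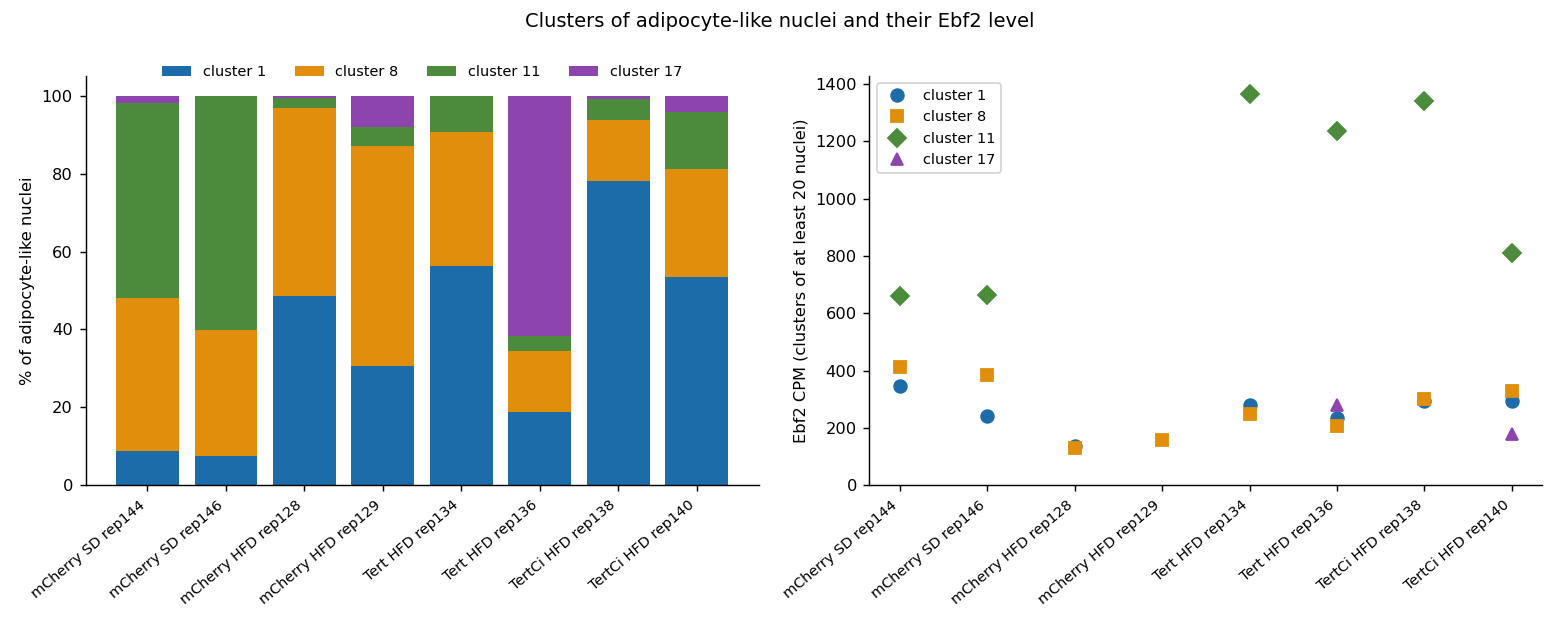
Left, share of each mouse's adipocyte-like nuclei in clusters 1, 8, 11 and 17, in percent. Right, Ebf2 CPM in each cluster and mouse with at least 20 nuclei; in cluster 8 the mCherry HFD mice sit at 130 and 160, below the other 6.

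Shares of nuclei with an Ebf2 UMI were compared at a fixed depth. After each nucleus was thinned to 1000 UMIs, Ebf2 was found in 34.9% and 35.5% of adipocyte-like nuclei in mCherry SD, 12.95% and 22.6% in mCherry HFD, 23.2% and 20.5% in Tert HFD, and 24.8% and 27.6% in TertCi HFD. Mouse rep129 of mCherry HFD, with 62 nuclei, overlapped the Tert group by this measure. Unthinned shares were 76.1%, 81.1%, 54.4%, 43.5%, 75.8%, 40.6%, 67.9% and 70.5% in the same order. In macrophage-like nuclei, which should lack the gene, thinned shares were 1.21 to 11.4%, and unthinned shares 8.68 to 27.8%. Thinning left out 3 adipocyte-like and 28 macrophage-like nuclei of Tert mouse rep136 and none of the other mice, and median depths before thinning ran from 2072 to 13575 UMIs in adipocyte-like and 1368 to 6378 in macrophage-like nuclei.

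RNA of marker genes of other classes was also measured in the adipocyte-like sums. The 10 progenitor markers summed to 569 and 670 CPM in mCherry SD, 613 and 760 in mCherry HFD, 853 and 772 in Tert HFD, and 524 and 756 in TertCi HFD. Both Tert HFD mice were above the other 6, whose highest was 760. The 10 macrophage markers summed to 1511 and 1367 CPM in mCherry SD, 1108 and 1378 in mCherry HFD, 1256 and 839 in Tert HFD, and 702 and 817 in TertCi HFD, where both mice were lowest. Markers at 0 were Pi16 in mCherry HFD mouse rep129 and Cd68 in mCherry SD mouse rep144, 1 of 10 in each. Markers of B, mesothelial, cycling and Schwann cells also separated a group from the rest. The 7 B cell markers summed to 224 and 176 CPM in mCherry SD against 42.2 to 80.4 in the other 6 mice, and the 8 mesothelial markers to 131 and 75.3 against at most 32.7, with all of both lists detected in mCherry SD and 0 to 3 of a list at 0 in each other mouse. The 5 markers of cycling cells summed to 38.8 and 64.3 CPM in mCherry HFD against 5.70 to 21.6 elsewhere, with Cenpf at 0 in rep144 and rep136. The 5 Schwann cell markers summed to 9.41 and 18.8 CPM in mCherry SD, 4.34 and 0 in mCherry HFD and 5.30 to 7.49 elsewhere, with 1 to 5 of them at 0 in every mouse. Macrophage-like nuclei made up 51.3% and 51.0% of all nuclei in mCherry HFD and 4.48 to 29.9% elsewhere, while adipocyte-like nuclei made up 2.60% and 2.15% against 14.6 to 34.3%. The part of these markers and shares in the results was not tested.

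In progenitor-like nuclei Pparg alone was called, and in all 3 comparisons with mCherry HFD: it was lower on the high-fat diet and higher with Tert and with TertCi. The other 8 genes that passed the low-count filter did not pass the test, and Cebpa did not pass the filter, at 0.571 to 5.95 CPM. Among 12069 genes tested in this class, 12.4% passed for the diet, 10.5% for Tert and 18.9% for TertCi. By direction, 8.04% were higher and 4.37% lower for the diet, 2.85% higher and 7.7% lower for Tert, and 6.29% higher and 12.6% lower for TertCi. Tert and TertCi differed for 0 of 9 members and 0% of genes, with 578 genes at an unadjusted p under 0.05 in edgeR.

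**Figure D4:**
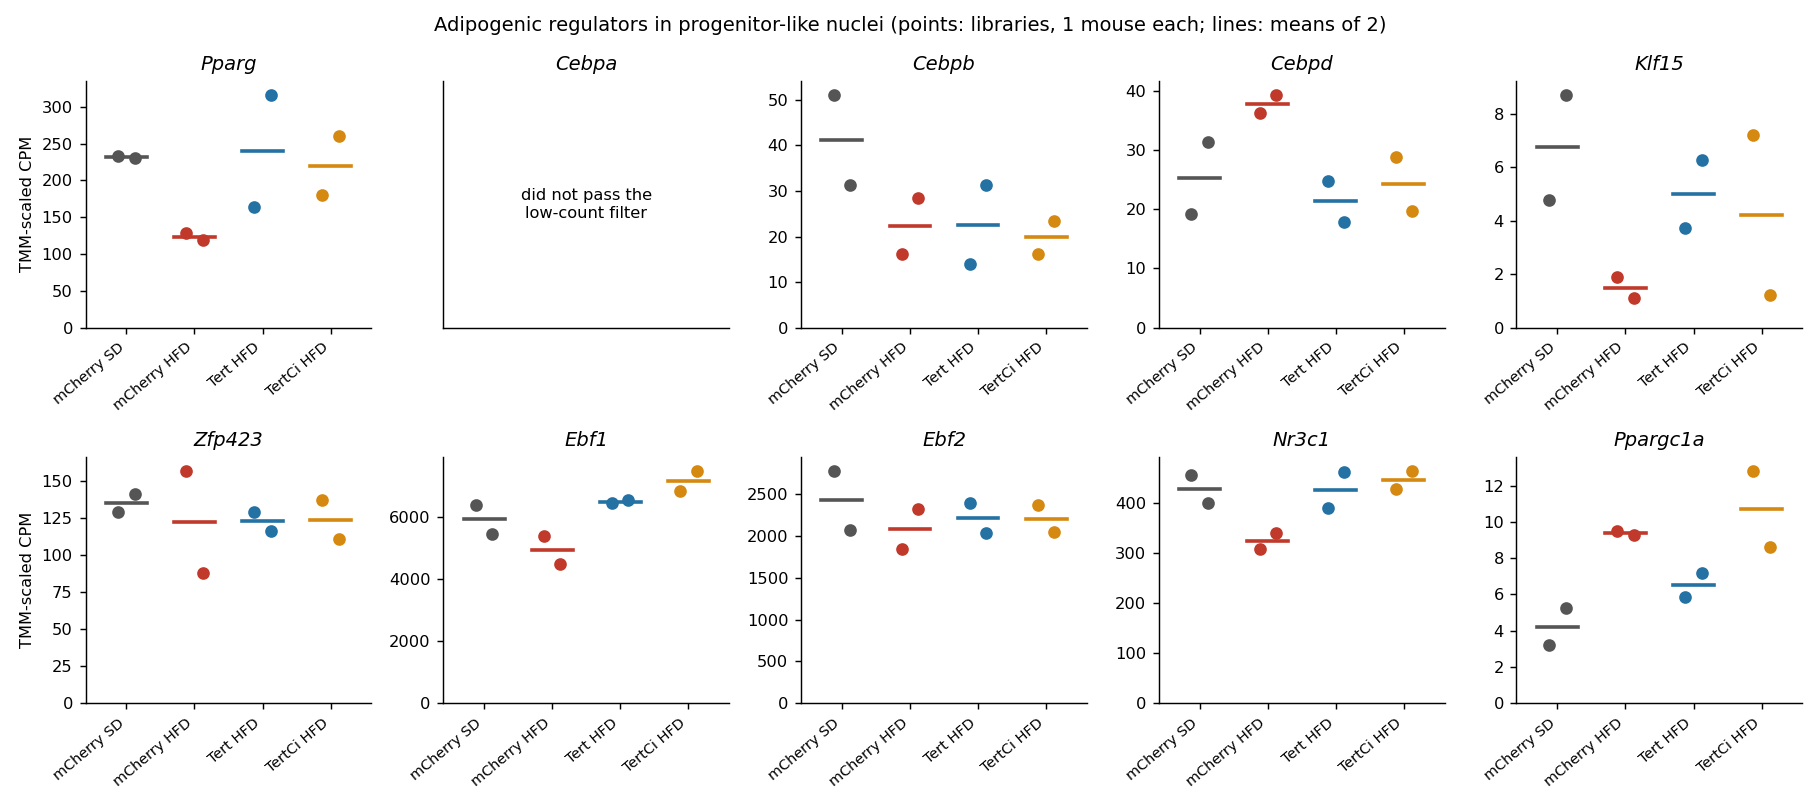
TMM CPM of each regulator in progenitor-like nuclei (y axes start at 0 and differ between genes). Points are mice, and lines are group means of 2. Pparg is lowest in the mCherry HFD mice, at 128.4 and 118, while the groups overlap for Ebf2 and Zfp423.

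Pparg in progenitor-like nuclei stood at 233 and 231 TMM CPM in mCherry SD, 128.4 and 118 in mCherry HFD, 164 and 316 in Tert HFD, and 180 and 260 in TertCi HFD. Both mCherry HFD mice were below the other 6. The difference was -0.90 for the diet (SE 0.27, edgeR adjusted p = 0.0492), 0.92 for Tert (SE 0.26, edgeR adjusted p = 0.0455) and 0.82 for TertCi (SE 0.26, edgeR adjusted p = 0.0478). All 3 adjusted p lie near the threshold. The Tert call was lost without Tert mouse rep136 (log2 0.42, edgeR adjusted p = 0.291) and the TertCi call without TertCi mouse rep140 (log2 0.57, edgeR adjusted p = 0.229). All 3 calls were lost without any 1 of the mCherry SD or mCherry HFD mice, with edgeR adjusted p of 0.0515 to 0.207. They were also lost without TMM scaling, with 1000 UMIs required in every library, with the members among the variable genes, or with no doublet removal, with edgeR adjusted p of 0.0648 to 0.249. When mixed clusters, and unnamed clusters with a best class, joined that class, the differences were -0.09, 0.12 and 0.07, with the smallest edgeR adjusted p at 0.761. The clusters also shifted: cluster 14 held 54.4% and 54.2% of progenitor-like nuclei in mCherry HFD, none and 0.392% in mCherry SD, 7.53% and 14.8% in Tert HFD, and 2.64% and 4.46% in TertCi HFD. Within cluster 7 alone, Pparg was 96.3 and 189 CPM in mCherry SD, 64.1 and 68.8 in mCherry HFD, 129.1 and 149 in Tert HFD, and 124 and 152 in TertCi HFD, and the 3 calls were kept.

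RNA of adipocyte marker genes was present in the progenitor-like sums, and its level was lowest in the group where Pparg was lowest. All 10 adipocyte markers were detected in every progenitor-like sum, and they summed to 280 and 848 CPM in mCherry SD, 108 and 145 in mCherry HFD, 294 and 334 in Tert HFD, and 443 and 285 in TertCi HFD. The mCherry HFD mice were again lowest. The 10 macrophage markers in these sums came to 184 and 139 CPM in mCherry SD, 391 and 475 in mCherry HFD, 438 and 278 in Tert HFD, and 266 and 209 in TertCi HFD, with 3, 2 and 2 of them at 0 in rep144, rep146 and rep140, including Cd68 and Trem2 in each. The 7 B cell markers were highest in mCherry SD, at 304 and 170 CPM against at most 114, as were the 8 mesothelial markers, at 255 and 255 against at most 220, and the 6 lymphatic endothelial markers, at 17.2 and 12.9 against at most 11.5. The 5 cycling markers were 26.4 and 26.2 CPM in mCherry HFD, 1.44 and 2.58 in mCherry SD and 2.85 to 19.6 elsewhere. Of each of these 4 lists, 0 to 4 markers were at 0 in a mouse. The part of this RNA in the results was not tested. Barcodes with at least 10 but under 500 UMIs, too few for a nucleus, held Pparg at 1967 and 1629 CPM in mCherry SD, 509 and 431 in mCherry HFD, 1036 and 1370 in Tert HFD, and 1183 and 1983 in TertCi HFD. In these barcodes it was higher than in the progenitor-like nuclei of every library. As an alternative chosen after seeing the data, the share of adipocyte-like RNA given by the markers (1.68 to 9.91%) was subtracted from each progenitor-like sum. Pparg was then 68.7 and -18.5 CPM in mCherry SD, 111 and 84.5 in mCherry HFD, 111 and 145 in Tert HFD, and 90.3 and 116 in TertCi HFD. For mCherry SD mouse rep146, 247 CPM were subtracted from 228, and the fit used 0 in place of the negative value. The diet difference turned to 1.49 (edgeR adjusted p = 0.237), a size that depends on that 0 and on the fit's prior count. Those for Tert and TertCi were 0.56 (edgeR adjusted p = 0.604) and 0.30 (edgeR adjusted p = 0.767). The converse subtraction left Ebf2 in adipocyte-like sums at 317 and 312 CPM in mCherry SD, 26.4 and 48.4 in mCherry HFD, 133 and 62.1 in Tert HFD, and 159 and 141 in TertCi HFD. Ebf2 remained called after that step, with differences of -3.59 for the diet, 1.88 for Tert and 2.68 for TertCi, at edgeR adjusted p of at most 0.0395. The step took 122 to 220 CPM from each mouse, including 122 of 149 and 197 of 246 CPM in mCherry HFD. In Tert HFD it took 204 of 337 and 220 of 282 CPM. Taking such amounts from every mouse enlarges log2 differences from the lowest group, so their larger size is no added evidence.

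**Figure D5:**
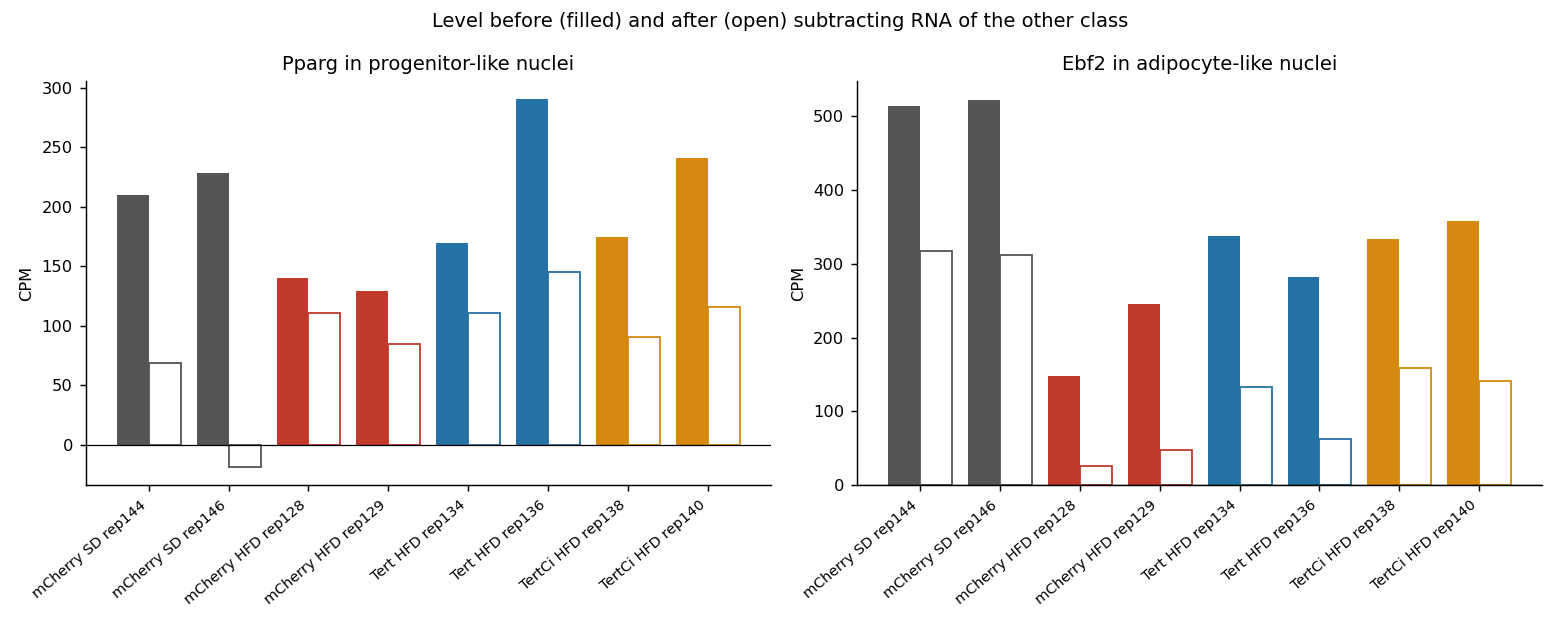
CPM before (filled) and after (open) subtracting the RNA of the other class, for Pparg in progenitor-like nuclei and Ebf2 in adipocyte-like nuclei, per mouse. After subtraction Pparg in mCherry SD is 68.7 and -18.5, below the mCherry HFD mice, and Ebf2 remains highest in mCherry SD at 317 and 312.

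No other member was called for the diet, Tert or TertCi in progenitor-like nuclei. Ebf1 was 6382 and 5440 TMM CPM in mCherry SD, 5391 and 4493 in mCherry HFD, 6441 and 6530 in Tert HFD, and 6818 and 7478 in TertCi HFD. In TMM CPM the mCherry HFD mice were lowest. In CPM without that scaling mCherry HFD mouse rep128 was at 5886, above both mCherry SD mice (5738 and 5377). The TertCi difference of 0.53 (SE 0.18) missed the threshold at an edgeR adjusted p of 0.0549. It was 0.44 to 0.68 in the 8 fits that left out 1 mouse, and it passed in 6 of 12 other alternatives. With mixed clusters in their best class, Ebf1 was called higher with Tert (0.75, edgeR adjusted p = 0.0161) and TertCi (0.98, edgeR adjusted p = 0.00294). Ebf2 was 1839 to 2778 TMM CPM with all groups overlapping, and its diet difference was -0.22 (SE 0.19, edgeR adjusted p = 0.494). With mixed clusters in their best class, Ebf2 was called higher in this class with Tert (0.58, edgeR adjusted p = 0.0340) and TertCi (0.65, edgeR adjusted p = 0.0133). Nr3c1 was 457 and 401 TMM CPM in mCherry SD, 309 and 340 in mCherry HFD, 391 and 463 in Tert HFD, and 429 and 465 in TertCi HFD. Its mCherry HFD mice were also lowest, with a TertCi difference of 0.46 (SE 0.15, edgeR adjusted p = 0.0515) that passed in 4 of the 8 fits that left out 1 mouse and in 4 of 12 other alternatives. With mixed clusters in their best class its diet difference was called, at -0.64 (edgeR adjusted p = 0.0202). Zfp423 was 87.9 to 157 TMM CPM, both extremes coming from the mCherry HFD mice.

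Among the early factors in progenitor-like nuclei, Cebpb was 51.1 and 31.4 TMM CPM in mCherry SD and 13.9 to 31.4 in the other 6 mice, with a diet difference of -0.92 (SE 0.43, edgeR adjusted p = 0.185). Cebpd was 36.2 and 39.3 TMM CPM in mCherry HFD and 17.9 to 31.4 elsewhere, with a Tert difference of -0.74 (SE 0.27, edgeR adjusted p = 0.108). Klf15 was 4.79 and 8.71 TMM CPM in mCherry SD, 1.90 and 1.09 in mCherry HFD, and 1.23 to 7.21 elsewhere, and its diet difference of -2.05 (SE 0.79) did not pass (edgeR adjusted p = 0.117). With 1000 UMIs required in every library, Klf15 was called for the diet (-1.81, edgeR adjusted p = 0.0245) and TertCi (1.62, edgeR adjusted p = 0.0307). Ppargc1a was 3.19 to 12.8 TMM CPM. Their counts were thin, with 100 Klf15 and 239 Ppargc1a UMIs over all 8 mice. Ppargc1a was 9.52 and 9.28 in mCherry HFD against 3.19 and 5.23 in mCherry SD, a difference of 1.07 (SE 0.50) that did not pass (edgeR adjusted p = 0.188).

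The diet difference of Ebf2 was larger in adipocyte-like than in progenitor-like nuclei, by -1.48 on the log2 scale (SE 0.22, edgeR adjusted p = 0.000265) in a fit over both classes with the mouse as a block. This difference between classes was called in that fit and in the 6 alternatives that kept all mice. It ran from -1.75 to -1.44 in the 8 fits that left out 1 mouse. No difference between classes was refitted with mixed clusters in their best class, the setting that removed the adipocyte-like Ebf2 calls. Among 16433 genes, 4.24% had a diet difference that differed between classes. Cebpb also differed, by 1.43 (SE 0.35, edgeR adjusted p = 0.0184): it was 0.33 in adipocyte-like and -0.92 in progenitor-like nuclei, neither called alone. Without mCherry HFD mouse rep128 the Cebpb value was 0.47 (edgeR adjusted p = 0.808), without mCherry SD mouse rep144 it was 1.05 (edgeR adjusted p = 0.242), and without mCherry SD mouse rep146 it was 1.56 (edgeR adjusted p = 0.0566). The Cebpb call was also lost in DESeq2 (1.38, adjusted p = 0.117) and with the other class's RNA subtracted (1.36, edgeR adjusted p = 0.206). The TertCi difference of Ebf2 was larger in adipocyte-like nuclei by 1.10 (SE 0.22, edgeR adjusted p = 0.00551, background 3.12%), and this was lost only without mCherry HFD mouse rep128 (edgeR adjusted p = 0.0625). For Tert it was 0.82 (SE 0.22, edgeR adjusted p = 0.0700, background 1.6%), with 0 of 10 members called, and it passed in 6 of the 8 fits that left out 1 mouse. The diet difference of Ebf1 between classes was not called either, but passed in 5 of those 8 fits, and that of Nr3c1 in 3. For Pparg the diet difference between classes was not called (-0.12 ± 0.23 SE, edgeR adjusted p = 0.898).

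Across classes of nuclei, each given as its median CPM over 8 libraries, the genes had different profiles. Ebf2 was highest in progenitor-like nuclei at 2170 CPM (range 1867 to 2524), then in mural-like nuclei at 1243 (357 to 1637) and adipocyte-like nuclei at 336 (149 to 522). The ranges of the last pair overlapped, and macrophage-like nuclei were at 50.6 CPM. Mouse rep144 gave only 10 mural-like and 12 endothelial-like nuclei to the ranges of those classes. Ebf1 was 5939 in progenitor-like, 5007 in mural-like and 4593 in adipocyte-like nuclei, with overlapping ranges, and 358 in macrophage-like nuclei. Pparg was highest in adipocyte-like nuclei at 1846 (1418 to 3098), followed by endothelial-like at 995 (349 to 1380) and mural-like nuclei at 980 (591 to 1524), whose range overlapped it, then macrophage-like nuclei at 439. Of the 6 classes summarised, progenitor-like nuclei had the lowest median, at 192. Zfp423 was highest in adipocyte-like nuclei at 690 (374 to 777), above its highest value in progenitor-like nuclei of 172. Nr3c1 varied little, from 312 in mesothelial-like to 589 in macrophage-like nuclei. In barcodes with at least 10 but under 500 UMIs, Ebf2 had a median of 477 CPM (209 to 727), above its adipocyte-like median. Cebpa, Cebpb, Cebpd and Nr3c1 also had higher medians in these barcodes than in adipocyte-like nuclei. Pparg, Klf15, Zfp423, Ebf1 and Ppargc1a had lower ones.

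Wider lists of genes around these regulators were read from the same fits, and the values below are log2 differences of genes past an edgeR adjusted p of 0.05. The shares of all genes called, in either direction, were 20.5% for the diet, 3.21% for Tert and 14.4% for TertCi in adipocyte-like nuclei, and 12.4%, 10.5% and 18.9% in progenitor-like nuclei. Of PPARγ and C/EBPα target genes in adipocyte-like nuclei, 1 of 24 tested was higher and 2 were lower for the diet (20.5% of all genes called), with a list median of 0.13 against 0.02 for all genes. Pck1, which feeds glycerol synthesis for fat storage, fell by 1.63 and the desaturase gene Scd1 fell by 0.64 on the log2 scale, while Pdk4, which spares glucose from oxidation, rose by 2.70. With TertCi, 3 of 24 were higher and 0 lower (14.4% of all genes called): Scd1 by 1.31, Pck1 by 1.42 and the lipase gene Lipe by 0.71. With Tert, Scd1 alone was higher, by 1.32.

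In progenitor-like nuclei, 9 of 21 target genes were lower for the diet and 1 was higher (12.4% of all genes called), by 0.88, the lipoprotein lipase gene Lpl, which is named after its value was seen. The lower ones included Cidec (-3.12), Pck1 (-3.75), Lipe (-1.99) and Scd1 (-1.56), and 5 of the 9 are among the adipocyte markers used to name clusters. With Tert 8 were higher, among them Plin1 (2.15), Dgat2 (1.90) and Pck1 (2.91), and 0 lower. With TertCi 9 were higher, among them Cidec (2.71), and Lpl was lower (-0.65). Adipocyte marker sums in these nuclei moved the same way, as given above for Pparg. With adipocyte-like RNA subtracted, 11 of the list could be tested, and 2 were higher and 2 lower for the diet, 1 and 1 for Tert, and 1 and 1 for TertCi.

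Of other regulators that favour fat cell formation, 7 of 24 tested were lower and 2 higher for the diet in adipocyte-like nuclei (20.5% of all genes called), with a list median of -0.53. The Wnt-pathway transcription factor gene Tcf7l1 fell by 1.79, Nfia, which cooperates with EBF2 in brown fat, fell by 1.09, the coactivator gene Ncoa2 by 0.72 and Klf9 by 0.76 on the log2 scale. With TertCi 8 were higher and 1 lower (14.4% of all genes called), the higher ones including Tcf7l1 (2.18), Nfia (1.37), the PPARγ partner Tle3 (1.34) and Ncoa2 (0.74). With Tert, Nfia (0.96) and Tcf7l1 (1.37) were called, and with progenitor-like RNA subtracted 0 of 24 were. Of regulators that oppose fat cell formation, 6 of 20 were lower and 1 higher for the diet (20.5% of all genes called), among them Tcf7l2 (-1.44), Zfp521 (-2.14), an antagonist of ZFP423 and EBF1, the corepressor gene Ncor1 (-0.71) and Nr2f2 (-1.34). With TertCi 4 of 20 were higher, namely Foxo1 (1.35), Wwtr1 (0.66), Yap1 (0.83) and Tcf7l2 (0.75), and with Tert 0 were called. The list medians were -0.46 for the diet and 0.43 for TertCi. With progenitor-like RNA subtracted, 17 of the opposing genes could be tested, of which 2 were lower and 0 higher for the diet and 4 higher for TertCi.

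In progenitor-like nuclei few genes of these lists were called for the diet. Egr2, an early activator of the C/EBP genes, rose by 3.15 as the only 1 of 23 favouring genes, and Foxo1 fell by 0.82 as the only 1 of 20 opposing genes. With Tert 2 favouring genes were higher and 1 lower, and with TertCi 4 were higher and 2 lower. Bmp4, a growth factor gene that commits progenitors to the fat lineage, was higher by 1.10 with Tert and by 1.90 with TertCi, and Egr2 was lower by 1.71 and 2.42. Foxo1 was higher by 0.73 and 1.04 in the same comparisons, within 2 opposing genes higher and 0 lower for Tert and 3 higher and 1 lower for TertCi.

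Of targets of the glucocorticoid receptor in adipocyte-like nuclei, 3 of 14 were higher and 2 lower for the diet (20.5% of all genes called): the metallothionein gene Mt1 rose by 2.75 and Pdk4 by 2.70, and Klf9 fell by 0.76 and Hif3a by 3.38. With TertCi 4 were higher and 2 lower (14.4% of all genes called). Tsc22d3, which encodes the glucocorticoid-induced protein GILZ, was higher by 1.40, Zbtb16 by 1.82 and Hif3a by 4.21, and Mt1 was lower by 2.25. In progenitor-like nuclei with TertCi, Tsc22d3 (1.46) and Zbtb16 (1.71) were again higher and Sgk1 (-1.07) and Mt1 (-2.60) lower, 2 and 2 of 14 (18.9% of all genes called), and with adipocyte-like RNA subtracted 1 and 1 of 14. With Tert 0 of 14 were called in adipocyte-like nuclei, and 2 were lower in progenitor-like nuclei, Mt1 (-2.02) and Errfi1 (-1.08). With adipocyte-like RNA subtracted, 1 of 14 was lower with Tert in progenitor-like nuclei. For the diet in that class, Mt1 rose by 2.32 and Dusp1 fell by 1.00.

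Of partners and targets of PGC-1α in adipocyte-like nuclei, where Ppargc1a itself was not called, 2 of 11 were higher and 2 lower for the diet (20.5% of all genes called): the orphan receptor gene Esrrg rose by 2.28 and the cytochrome c gene Cycs by 1.56, while Ppara fell by 0.79 and Nrf1 by 0.88. With TertCi 2 were higher, Ppara (0.84) and Vegfa (0.75), and Cycs was lower (-1.96, with 14.4% of all genes called), and with Tert 0 were called. With progenitor-like RNA subtracted, 2 of 11 were higher and 1 lower for the diet, and 1 and 1 for TertCi. In progenitor-like nuclei Vegfa was lower for the diet (-1.08), a call lost with adipocyte-like RNA subtracted (0 of 9 called), and Ppara was higher with Tert (1.88) and TertCi (1.53), where Nrf1 was also higher (0.56). Tert against TertCi called 0 genes of any list in either class.

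By Pearson correlation of log2 CPM over the 8 libraries, a description with no test, the genes most like Pparg in adipocyte-like nuclei were Trim26 (r = 0.986), Tdrd7 (0.980) and Trmt11 (0.969), of 6081 genes compared. Those most like Cebpa were Ddx5 (0.977), Ginm1 (0.952) and Ffar2 (0.940), and those most like Klf15 were Sdhc (0.985), Ubac1 (0.982) and Vps37a (0.981). In progenitor-like nuclei, of 6148 genes, the nearest to Ebf1 was Btbd3 (0.981), the nearest to Cebpd was Tmed10 (0.972), and the nearest to Zfp423 was Pex3 (0.888). All points share their library, its depth and its cluster makeup.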

How the data were processed

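Single-nucleus RNA counts came from snap-frozen visceral white fat of 8 mice, with nuclei sorted by DAPI, per the labels' protocols. The authors deposited unfiltered UMI counts per barcode, made with Cell Ranger 7.1.0 per the file headers, while the submitters' processing notes name Cell Ranger 5.0.1, bcl2fastq 2.20.0 and build mm39. The annotation and the counting of introns are not given in the sources used here. Nuclei were processed in batches, and which mice shared one is not given. The series' design text speaks of stromal cells, whereas the labels name whole tissue, which was followed.

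A barcode was kept with at least 500 UMIs, at least 0.1 of the 99th percentile of its library's top 5000 barcodes, 300 or more genes detected, and mitochondrial RNA of 5% or less. Scrublet (in scanpy 1.11.5) ranked doublets, and its top 0.8% per 1000 nuclei were removed, since its own threshold marked 0 to 0.154%. Nuclei were clustered by Leiden (resolution 1, seed 1) on 2000 variable genes, leaving out 115 genes of the members and lists. A cluster was named from at least 3 raised markers, and left out where another lineage scored at least 0.5 of the best. Counts were summed per mouse and class and tested with edgeR 4.0.16 (filterByExpr, TMM, quasi-likelihood, Benjamini-Hochberg adjustment over all genes tested, all 4 groups in 1 fit). "Called" means an adjusted p under 0.05, and log2 standard errors are the estimate divided by the root of its F statistic. The difference between classes used 1 fit with a block per mouse. DESeq2 1.42.0 and leaving out each mouse were among the alternatives.

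On simulated counts the adipocyte-like diet fit recovered 3% of 2-fold and 71% of 4-fold changes, the progenitor-like fit 12% and 70%, and the class difference 0% and 12.1%. The simulation changed at most 100 genes at each fold, among 14908 in the adipocyte-like class, with a single dispersion for all genes. In the data 20.5% of genes were called in that comparison, and the adjustment is then less strict. Changes of 2-fold can be missed, but these shares are not the recovery in the data. Intervals from counts cover counting error only, and p-values rest on 2 mice per group.

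All 10 members are named. From each wider list, up to 4 called genes per class and comparison with the smallest adjusted p are named, and up to 3 genes most correlated with 6 of the members. The members, lists and tests were chosen with earlier results of these data known. Promoter windows come from RefSeq's GRCm38.p6 table, a different build from mm39, and were matched by symbol.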

Additional observations from a re-analysis of the deposited data

Results flagged for a closer look

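For 3 results, a comparison differed between the classes by a direct test of that difference in edgeR with the mouse as a block. On the log2 scale, adipocyte-like minus progenitor-like, the diet difference of Ebf2 differed by -1.48 (edgeR adjusted p = 0.000265). That of Cebpb differed by 1.43 (edgeR adjusted p = 0.0184), and the call was lost without either mCherry SD mouse or without mCherry HFD mouse rep128, in DESeq2 (adjusted p = 0.117) and with the other class's RNA subtracted (edgeR adjusted p = 0.206). The TertCi difference of Ebf2 differed by 1.10 (edgeR adjusted p = 0.00551), and the call was lost without mCherry HFD mouse rep128. Groups of 2 mice are too small for a search for outlying samples.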

How the results depend on the processing

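The number of members called depended on single mice: leaving out each mouse in turn gave 1 to 4 calls for the diet (5 with all mice), 0 to 1 for Tert (1) and 0 to 4 for TertCi (4) in adipocyte-like nuclei. In progenitor-like nuclei it gave 0 to 1 for the diet (1), 0 to 1 for Tert (1) and 0 to 3 for TertCi (1), and for the difference between classes 1 to 4 (2), 0 to 1 (0) and 0 to 2 (1). Tert against TertCi stayed at 0 in every class and setting run. Where a fit left 1 mouse in a group, that mouse is assumed to vary like the other groups.

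In adipocyte-like nuclei, diet calls were 3 with mixed clusters in their best class or the other class's RNA subtracted. Tert calls were 0 with DESeq2 size factors, library totals, only the 2 groups, 1000 UMIs in every library, mixed clusters in their best class, members among the variable genes, no doublet removal or without clusters of mostly 1 library, and 4 without a filter on low counts. TertCi calls were 2 with library totals, Ebf2 and a lower Cebpd. In progenitor-like nuclei, diet calls were 0 with library totals, members among the variable genes, no doublet removal or the other class subtracted, and Tert calls were 0 with these and with 1000 UMIs. At 1000 UMIs Klf15 replaced Pparg as the call for the diet and TertCi, and with no doublet removal Nr3c1 replaced it for TertCi. Tert calls were 2 with mixed clusters in their best class. TertCi calls were 0 with library totals or members among the variable genes, 3 without a filter or with only the 2 groups, 2 with DESeq2 or 1 cluster only, and 4 with mixed clusters. For the difference between classes, diet calls were 4 without a filter and 1 with DESeq2 or the other class subtracted, Tert calls 1 without a filter and TertCi calls 2 without a filter. The cause of these shifts was not tested.

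Reversals of direction were listed only for member results called in at least 1 setting, so reversals of members never called are not included. Directions reversed for Pparg in progenitor-like nuclei on the diet (1.49 with the other class subtracted, where the negative value of mCherry SD mouse rep146 was floored in the fit). They also reversed for Ebf2 there, with Tert at -0.071 (library totals), -0.045 (1 cluster only) and -0.057 to 0.29 over the fits that left out 1 mouse, negative without mCherry HFD rep128 or Tert HFD rep134. With TertCi they were -0.12 (library totals) and -0.059 to 0.30 over those fits, negative without mCherry HFD rep128 or TertCi HFD rep138. Klf15 with TertCi ranged from -0.42 (without TertCi HFD rep138) to 2.14. None of these reversed Ebf2 or Klf15 values was called in edgeR. Other settings did call Ebf2 higher with Tert (0.58) and TertCi (0.65) with mixed clusters in their best class, and Klf15 with TertCi (1.62) at 1000 UMIs in every library.

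Among all genes, edgeR called 3063 for the diet in adipocyte-like nuclei (189 to 4587 over the alternatives), 479 for Tert (0 to 2239), 2140 for TertCi (30 to 3742) and 0 for Tert against TertCi (0 to 116). In progenitor-like nuclei it called 1497 (416 to 2838), 1273 (177 to 2434), 2280 (556 to 4188) and 0 (0 to 61), and for the difference between classes 697 (173 to 1180), 263 (28 to 536), 512 (115 to 934) and 0 (0 to 66). Subtracting the other class, leaving out clusters of mostly 1 library and using 1 cluster were chosen after seeing the data. No paired analysis was possible because the groups share no mouse numbers. Depth limits Cebpa, Klf15 and Ppargc1a in progenitor-like nuclei, and 193 and 62 adipocyte-like nuclei limit mCherry HFD.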
